A study of Mus musculus with 10 samples.

Results

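Hif1a and 9 oxygen-regulated genes were followed in activated T cells of mice with and without KLF13, a zinc-finger transcription factor of the Krüppel-like family. The 10 genes were chosen by name. They comprised the transcription factor gene Hif1a, its prolyl hydroxylases Egln1 and Egln3, the collagen prolyl hydroxylases P4ha1 and P4ha2, the growth factor gene Vegfa, the mitochondrial genes Bnip3, Bnip3l and Higd1a, and Ndrg1. Of 19048 genes present in both array tables of the series, 12485 passed a filter on dim signal and were tested, and these included 10 of the 10. The arrays carried RNA of CD3+ spleen T cells from Balb/c males, 12 weeks old and either wild type (WT1 to WT5) or labelled KLF13 KO (KO1 to KO5). All cultures, of both genotypes, had been stimulated through CD3 (antibody on the plate) and CD28 (antibody in solution) over 4 days, so no resting cells serve as a baseline. The labels name 1 mouse per array. The sources used here do not give how the knockout allele was made, in which cells of the animal it acts, or the oxygen level of the cultures.

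The protein HIF1A joins ARNT to form a transcription factor whose amount is set largely after transcription. With oxygen at hand, EGLN enzymes hydroxylate HIF1A and the VHL ubiquitin ligase marks it for degradation. When oxygen is short, HIF1A persists and raises genes of glycolysis, mitophagy, vessel growth and collagen modification. Egln1 and Egln3 are among these targets and so close a feedback loop. In T cells, stimulation of the antigen receptor also raises HIF1A without hypoxia, and HIF1A is known for its part in the glycolytic programme of activated and effector cells. The arrays measured RNA, so the protein and its hydroxylation were not seen here.

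HIF1A with ARNT binds a core of the letters ACGTG or GCGTG, and KLF and SP factors bind GC-rich boxes such as GGGCGG. RefSeq promoter windows of GRCm38.p6 ran from 250 bases upstream of an annotated start of a gene to 50 bases after it. They were matched by symbol for 8 of the 10 genes (all but Bnip3l and Ndrg1). The 250 upstream bases of 5 of them are printed to show how these letters are placed in Hif1a itself, in the genes whose signal differed most in replicates 4 and 5 (Egln3, Bnip3 and Higd1a) and in P4ha2, whose signal differed little. Capitals mark ACGTG and GCGTG on either strand, the other strand appearing as CACGT and CACGC.
Hif1a promoter, chr12:73907617-73907866, plus strand: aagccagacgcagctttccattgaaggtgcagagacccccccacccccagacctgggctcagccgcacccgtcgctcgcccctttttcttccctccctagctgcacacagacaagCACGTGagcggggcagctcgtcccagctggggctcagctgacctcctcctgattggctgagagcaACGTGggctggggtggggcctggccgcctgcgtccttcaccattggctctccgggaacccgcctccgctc
Egln3 promoter, chr12:54203875-54204124, minus strand: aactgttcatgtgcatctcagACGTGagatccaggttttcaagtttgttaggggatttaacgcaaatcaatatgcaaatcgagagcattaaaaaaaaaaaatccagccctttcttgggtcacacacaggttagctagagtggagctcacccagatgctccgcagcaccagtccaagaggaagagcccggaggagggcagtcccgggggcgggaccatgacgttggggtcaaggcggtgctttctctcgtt
P4ha2 promoter, chr11:54100674-54100923, plus strand: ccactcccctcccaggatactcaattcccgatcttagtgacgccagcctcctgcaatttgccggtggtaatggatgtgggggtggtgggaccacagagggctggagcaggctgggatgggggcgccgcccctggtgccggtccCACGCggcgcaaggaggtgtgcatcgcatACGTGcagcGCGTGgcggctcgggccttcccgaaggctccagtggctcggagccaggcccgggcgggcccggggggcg
Bnip3 promoter, chr7:138909507-138909756, minus strand: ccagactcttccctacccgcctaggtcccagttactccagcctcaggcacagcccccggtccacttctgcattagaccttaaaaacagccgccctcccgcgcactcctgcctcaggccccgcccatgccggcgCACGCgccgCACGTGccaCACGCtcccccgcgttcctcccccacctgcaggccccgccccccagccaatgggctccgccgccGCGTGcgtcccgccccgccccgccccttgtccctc
Higd1a promoter, chr9:121857797-121858046, minus strand: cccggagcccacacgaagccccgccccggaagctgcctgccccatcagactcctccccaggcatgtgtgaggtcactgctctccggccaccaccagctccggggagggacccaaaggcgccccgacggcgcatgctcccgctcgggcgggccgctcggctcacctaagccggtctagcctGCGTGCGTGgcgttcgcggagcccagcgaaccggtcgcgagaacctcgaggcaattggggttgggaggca
On either strand, ACGTG was found in the windows of 8 of the 8 genes, beside 19.6% of all 32851 windows and 24.8% of the 12724 windows of tested genes. GCGTG was in 6 of the 8, beside 32.4% of all windows and 48.8% of those of tested genes. GGGCGG was in 7 of the 8 (all but Hif1a), beside 35.7% and 61.0%. A gene was counted if any of its windows held the letters, whereas the shares are of single windows. The genes were also chosen for their known place in the HIF response, so their share of HIF core letters is no independent finding. The Hif1a window belongs to a start inside the annotated gene, which begins at base 73901324 of chromosome 12. Hif1a had its ACGTG matches with the first base 135, 134 and 70 bases upstream of the window's start. The matches at 135 and 134 share the palindrome CACGTG, which Bnip3 also held, at 108 and 107 bases. The ACGTG of Egln3 lay 229 bases upstream, and that of Higd1a lay 43 bases after the start, outside the printed bases. In Higd1a, the GCGTG matches at 70 and 66 bases overlap by a base. Vegfa had several windows, and ACGTG was in the downstream one, 211 bases before that start. Bnip3, Egln1, Higd1a, P4ha1, P4ha2 and Vegfa held all 3 motifs, whereas GCGTG was in the window of neither Hif1a nor Egln3. A match describes these letters and is no evidence of binding.

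The arrays came as an exon-level table, with replicates 1 to 3 of each genotype, and a gene-level table, with replicates 4 and 5. Values are log2 signals. Column medians were 5.21 and 5.23 in replicate 1 and 6.25 to 6.43 in replicates 2 and 3, and 4.18 to 4.30 in the gene-level table, so knockout was compared with wild type inside these 3 sets and then over all 3 with the set as a block. KO3 had the narrowest spread of the exon-level arrays, with an interquartile range of 3.10 beside 3.43 to 3.57 in the others. Klf13 was below the wild-type arrays of its set in 5 of 5 knockout arrays and fell by 0.86 ± 0.12 log2 units over the 3 sets, to 0.549 of wild type (SE, limma, adjusted p = 0.0126). Transcripts of T cells were abundant, with 8 of 8 measured T cell markers above the median gene in both tables. Their mean log2 signal was 9.44 to 10.4 in wild-type and 9.14 to 9.92 in knockout arrays, with a median difference of -0.67 in replicates 2 and 3 and 0.03 in replicates 4 and 5. Above the median gene were 1 of 7 markers of B and plasma cells, 1 of 10 of myeloid and dendritic cells, 1 of 6 of NK cells, 1 of 4 of erythroid cells and 3 of 8 of stromal and endothelial cells. The mean log2 signal of these lists lay between 3.7 and 5.74 in wild-type and between 3.7 and 5.99 in knockout arrays. Those of the B and plasma cell list and of the stromal and endothelial list were above every wild-type array of the set in 5 of 5 knockout arrays, with median differences of 0.19 and 0.19 over their 3 and 5 tested genes, none of which passed. In the NK list Nkg7, a granule protein that cytotoxic T cells also express, fell to 0.218 of wild type (limma, adjusted p = 5.94e-05), and the other tested marker, Tyrobp, differed by 0.10 (adjusted p = 0.727). The part of these shifts in the results that follow was not tested.

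Hif1a signal was lower in every knockout array than in every wild-type array of its set, and the gap was widest in replicates 2 and 3. In wild-type arrays 1 to 5 Hif1a read 10.60, 11.49, 11.64, 10.97 and 11.02 log2 units. In knockout arrays 1 to 5 it read 9.96, 10.17, 10.17, 10.61 and 10.69. No set had overlapping genotypes, although KO4 and KO5 differed from their wild-type mean by no more than -0.39 and -0.31. The difference was -0.64 in replicate 1, -1.40 in replicates 2 and 3 and -0.35 in replicates 4 and 5. Over the 3 sets it was -0.83 ± 0.17 (SE, 5 arrays against 5), a level of 0.564 of wild type with a 95% interval of -1.21 to -0.45 log2 units. It missed the threshold of 0.05 after Benjamini-Hochberg adjustment over all genes tested (limma, adjusted p = 0.064). In bulk RNA, fewer cells that express a gene and less RNA per cell cannot be told apart. The change from replicates 2 and 3 to replicates 4 and 5 was 1.05 ± 0.23 log2 units and did not pass (adjusted p = 0.26).

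**Figure D1:**
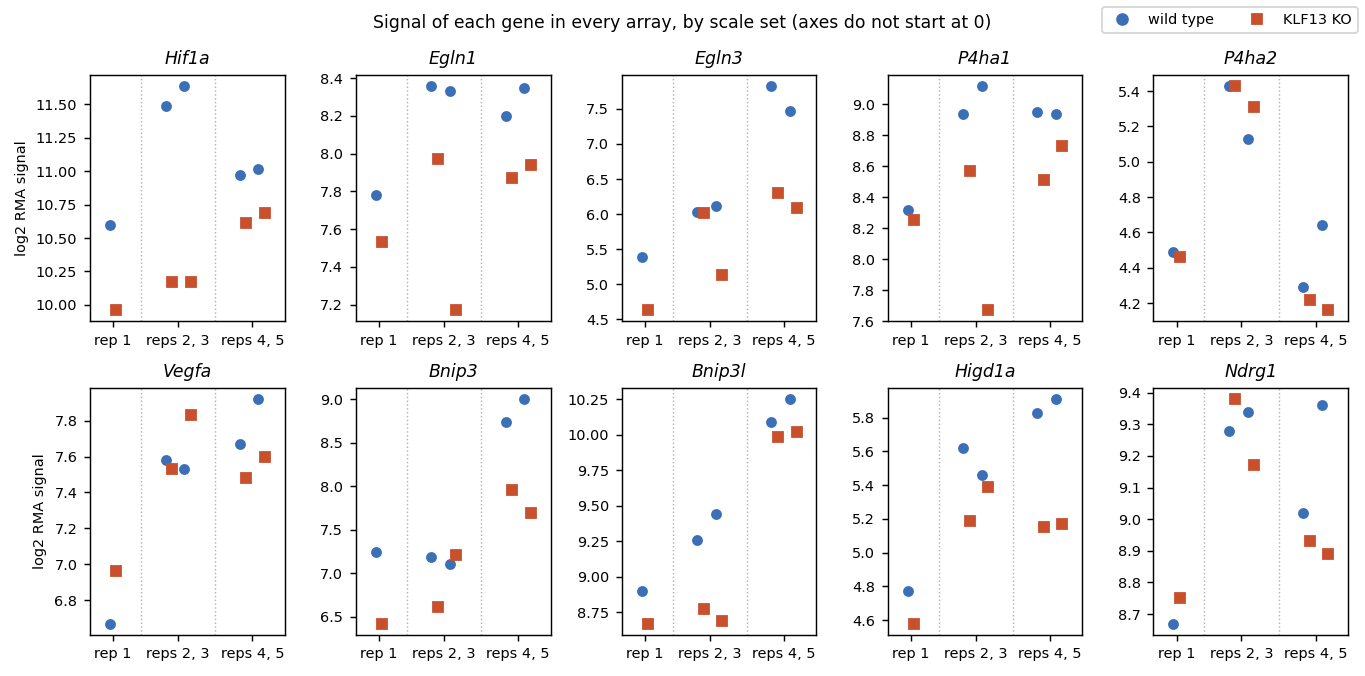
Each panel plots the log2 RMA signal of 1 gene (vertical axis) in every array, in 3 columns for replicate 1, replicates 2 and 3, and replicates 4 and 5; blue circles are wild-type and red squares KLF13 KO arrays. Hif1a, Egln1, Egln3, P4ha1, Bnip3l and Higd1a have every knockout array below every wild-type array of its set, while P4ha2, Vegfa, Bnip3 and Ndrg1 overlap in at least 1 set.

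The exon-level table held 18 probe sets of Hif1a, and 16 were lower in knockout both in replicate 1 and in the mean of replicates 2 and 3. The remaining ones were 10396422, at the start of the numbering (0.44 and 0.19), and 10396436 (0.07 in replicate 1, -1.44 in replicates 2 and 3). The largest difference in replicates 2 and 3 was -2.78, at 10396429. Of the 18, 9 had an unadjusted p under 0.05 and 0 passed adjustment over the 169103 probe sets tested (limma, smallest adjusted p = 0.743). No probe set of the series passed in that fit (0% called), and 7898 had an unadjusted p under 0.05.

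How far Hif1a probe sets differed went with how bright they were. The 7 with a mean of at least 12 averaged 12.63 in WT1, 14.00 in WT2 and 14.09 in WT3. In KO1, KO2 and KO3 they averaged 11.56, 11.51 and 12.28. In KO2 these 7 lay in a narrow band of 11.37 to 11.75, whereas in WT2 they spanned 13.55 to 14.56. The 6 Hif1a probe sets with a mean under 10 averaged 8.13, 8.54 and 8.64 in WT1 to WT3 and 7.88, 8.24 and 7.71 in KO1 to KO3. Bright probe sets of the whole exon-level table moved with them. Over the 1260 probe sets with a mean of at least 12, the median difference was -1.02 in replicate 1. It was -2.57 from WT2 to KO2 and -0.91 from WT3 to KO3, and over the gene-level table's brightest 147 it was 0. Dimmer probe sets shifted less. The share lower in replicates 2 and 3 was 88.8% at a mean of 10 to 12, 78.5% at 8 to 10 and 62% at 6 to 8. Under 6 it was 41.3%. In replicate 1 these shares were 79.8%, 55.6%, 48.9% and 50.1%. With every gene's exon-level value taken from probe sets under 10, the Hif1a difference over the 3 sets was -0.43 (limma, adjusted p = 0.274). Without replicates 2 and 3 it was -0.45 (adjusted p = 0.0598), and after quantile normalization within each table -0.56 (adjusted p = 0.0773).

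**Figure D2:**
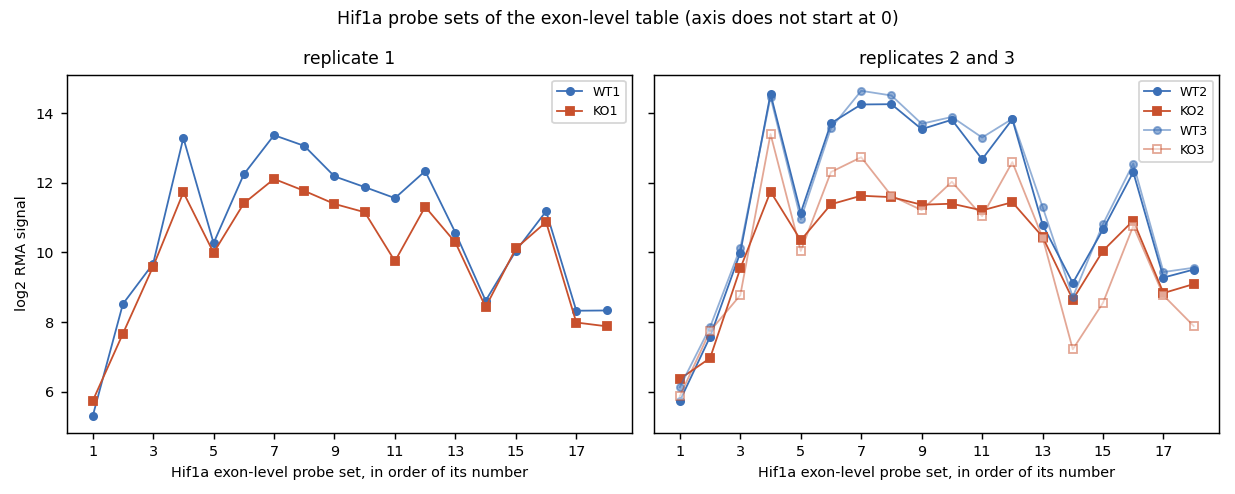
The log2 RMA signal (vertical axis) of the 18 exon-level Hif1a probe sets in order of their number (horizontal axis) is plotted for replicate 1 on the left and replicates 2 and 3 on the right, with wild type in blue and KLF13 KO in red. The genotypes lie farthest apart at the bright probe sets, where KO2 stays between 11.37 and 11.75.

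Egln1 and Egln3 were also lower in every knockout array than in the wild-type arrays of its set. The remaining hydroxylase genes that act on HIF1A were not lower in each set: Egln2 differed by -0.01, -0.32 and 0.12 in replicate 1, replicates 2 and 3, and replicates 4 and 5, and Hif1an by 0.13, -0.68 and 0.22. Egln1, which encodes the main oxygen sensor PHD2, read 7.78, 8.36, 8.33, 8.20 and 8.35 in WT1 to WT5. In KO1 to KO5 it read 7.53, 7.97, 7.17, 7.87 and 7.94. The lowest value was that of KO3, and the others differed from the wild-type mean of their set by -0.25 to -0.41. Differences were -0.25, -0.77 and -0.37 in replicate 1, replicates 2 and 3, and replicates 4 and 5. The difference over the sets was -0.51 ± 0.16 (SE, 0.703 of wild type), which did not pass (limma, adjusted p = 0.221). Of its 6 exon-level probe sets, 5 were lower in replicate 1 and in replicates 2 and 3. The exception, 10582718, differed by -0.29 and 0.18. Of all exon-level probe sets, 62% with a mean of 6 to 8 and 78.5% at 8 to 10 were lower in replicates 2 and 3.

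Egln3 encodes PHD3, the hydroxylase best known as strongly induced by hypoxia. Its signal in WT1 to WT5 was 5.39, 6.03, 6.11, 7.83 and 7.47. In KO1 to KO5 it was 4.63, 6.01, 5.13, 6.30 and 6.09. KO2 was the exception in size, as it differed from its wild-type mean by -0.06 while KO4 and KO5 differed from theirs by -1.35 and -1.56. Egln3 fell by 1.45 ± 0.15 log2 units in replicates 4 and 5 (SE, 2 arrays against 2, limma, adjusted p = 0.00354), where it is read by a single probe set. Over the 3 sets the difference was -0.93 ± 0.21, a level of 0.524, and missed the threshold (adjusted p = 0.0837). It passed without KO2, at -1.13 (adjusted p = 0.0168). Of its 10 exon-level probe sets, 7 were lower in replicate 1 and in replicates 2 and 3. Probe set 10400314 went the other way in replicates 2 and 3, by 1.86.

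P4ha1 and P4ha2 encode alternative catalytic subunits of the collagen prolyl 4-hydroxylase, an oxygen-consuming enzyme of the same dioxygenase class that modifies collagen rather than HIF1A. P4ha1 read 8.32, 8.94, 9.12, 8.95 and 8.94 in WT1 to WT5. Its knockout values were 8.25, 8.57, 7.67, 8.51 and 8.73 in KO1 to KO5. Each of these lay under the wild-type arrays of its set, with -0.07 from their mean in KO1 and -1.36 in KO3. The difference over the sets was -0.51 ± 0.19 (SE, limma, adjusted p = 0.271), and -0.33 in replicates 4 and 5 alone (adjusted p = 0.253). It was -0.31 without KO3 (adjusted p = 0.1) and -0.24 without replicates 2 and 3 (adjusted p = 0.32). In replicates 2 and 3, 17 of 17 probe sets were lower, and 10 of 17 in replicate 1. Of all exon-level probe sets with a mean of 8 to 10, 78.5% were lower in replicates 2 and 3 and 55.6% in replicate 1.

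P4ha2 was dim in both genotypes, at 4.49, 5.43, 5.13, 4.29 and 4.64 in WT1 to WT5. In KO1 to KO5 it read 4.46, 5.43, 5.31, 4.22 and 4.16, so the genotypes overlapped in replicates 2 and 3. Its difference over the sets was -0.08 ± 0.13 (SE, 95% interval -0.36 to 0.20, limma, adjusted p = 0.73). Probe set 10376078 stood apart in KO1, at 9.54 against 3.79 in WT1. Leaving it out, a choice made after seeing its values, moved replicate 1 from -0.03 to -0.39 and the difference over the sets to -0.17 (adjusted p = 0.486).

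Bnip3, Bnip3l and Higd1a encode mitochondrial proteins. BNIP3 and BNIP3L (NIX) sit in the outer membrane and recruit autophagosomes to mitochondria, and HIGD1A is an inner-membrane protein of the respiratory chain. Bnip3 read 7.24, 7.19, 7.11, 8.74 and 9 in WT1 to WT5. In KO1 to KO5 it read 6.42, 6.61, 7.21, 7.96 and 7.69. KO3 overlapped the wild-type arrays, and the other 4 knockout arrays lay under theirs, with -0.54 to -1.17 from the mean. Bnip3 fell by 1.04 ± 0.15 log2 units in replicates 4 and 5 (SE, 2 arrays against 2, limma, adjusted p = 0.012). Over the 3 sets the difference was -0.68 ± 0.17, a level of 0.626, and did not pass (adjusted p = 0.146).

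In KO3, 1 exon-level probe set of Bnip3 stood far apart from the other arrays. Probe set 10568786 read 10.2 there and 2.37 to 4.79 in the other 5 arrays. Without it, a choice made after seeing its values, Bnip3 read 7.74, 7.83 and 7.92 in WT1 to WT3. The knockout arrays then read 7.23, 7.30 and 6.61, and none overlapped wild type. The difference in replicates 2 and 3 went from -0.24 to -0.92, and that over the 3 sets passed at -0.88 (limma, adjusted p = 0.0326). Such probe sets were sought only in knockout arrays and only among the genes followed here. The other genes in the adjustment kept theirs. Of the 5 other probe sets of Bnip3, 10568787, 10568788 and 10568789 were lower in replicate 1 and in replicates 2 and 3, with differences of -0.29 to -1.85. The brighter 10568790 and 10568791 differed by 0.36 and -0.20 in replicate 1 and by -0.13 and 0.32 in replicates 2 and 3. At 10568791 KO3 read 11.10, above 9.97 and 9.60 in WT2 and WT3, while KO2 read 9.11.

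Bnip3l was lower in the knockout arrays by small amounts. WT1 to WT5 read 8.90, 9.26, 9.44, 10.09 and 10.25. KO1 to KO5 read 8.67, 8.77, 8.69, 9.98 and 10.02. Every knockout array was under the wild-type arrays of its set, with -0.15 from their mean in KO5. The difference was -0.36 ± 0.12 over the sets (SE, 0.779 of wild type, limma, adjusted p = 0.246) and -0.17 in replicates 4 and 5 (adjusted p = 0.575). Without replicates 2 and 3 it was -0.19 (adjusted p = 0.413). Of 9 exon-level probe sets, 8 were lower in replicate 1 and in replicates 2 and 3. Among all exon-level probe sets with a mean of 8 to 10, 55.6% and 78.5% were lower in these sets.

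Higd1a read 4.77, 5.62, 5.46, 5.83 and 5.91 in WT1 to WT5. Its knockout values were 4.58, 5.19, 5.39, 5.15 and 5.17 in KO1 to KO5. The genotypes did not overlap in any set, and KO4 and KO5 lay farthest below. Of 3 exon-level probe sets, only the dim 10597873 was lower in replicate 1 and in replicates 2 and 3 (-0.28 and -0.15). The others differed by 0.04 and -0.83 (10597872) and by -0.33 and 0.23 (10597874). Higd1a fell by 0.71 ± 0.12 log2 units in replicates 4 and 5 (SE, 2 arrays against 2, limma, adjusted p = 0.0207), which became 0.0603 without KO4. Over the sets the difference was -0.42 ± 0.13, a level of 0.746 (adjusted p = 0.202).

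In the gene-level table these 3 genes have a pair of probe sets each, and the brighter one stands for the gene. Those of Bnip3 differed by -1.04 at 10414269 and -1.18 at 10568785. The exon-level probe sets of Bnip3, 10568786 to 10568791, follow 10568785, while the brighter 10414269 is numbered apart from them, and signal from another locus cannot be told apart there. Probe set 10568785 read 7.87 and 7 in wild type and 6.67 and 5.83 in knockout, and did not pass when it stood for the gene (limma, adjusted p = 0.0826). Bnip3l differed by -0.17 at 10394800 and -0.20 at 10421003. For Higd1a the pair gave unlike values. The brighter 10492860 differed by -0.71, and 10597871 by -0.16, from 4.68 and 4.70 in wild type to 4.57 and 4.48 in knockout (adjusted p = 0.587). Their mean differed by -0.44 and did not pass (adjusted p = 0.102). The exon-level probe sets numbered just after 10492860, which are 10492861 and 10492863, name Higd1a together with the pseudogene Gm9790 and were left out. Signal from Higd1a and from such a near-identical copy cannot be told apart at 10492860, and a pseudogene of Bnip3l is likewise annotated.

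**Figure D3:**
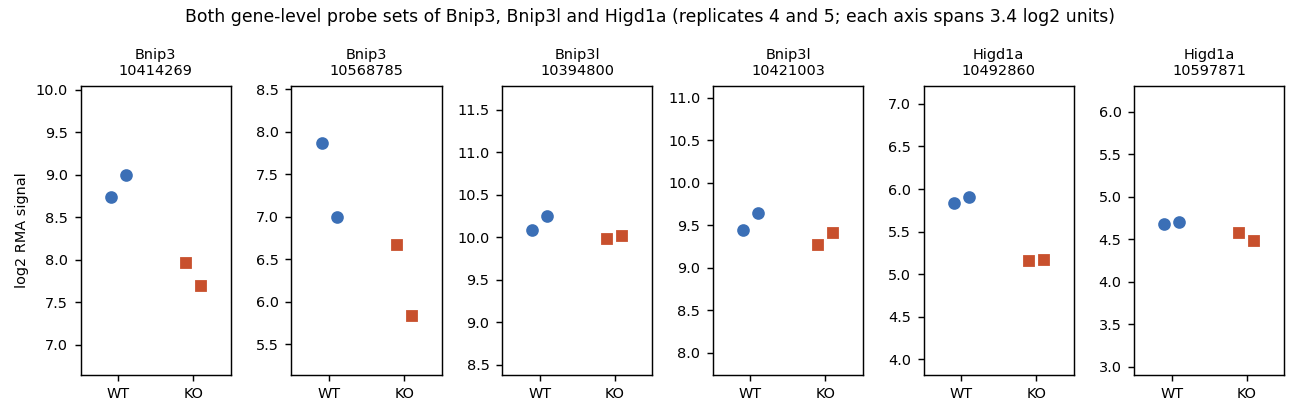
The log2 RMA signal (vertical axis, each spanning the same number of log2 units) of both gene-level probe sets of Bnip3, Bnip3l and Higd1a is plotted for wild-type (blue) and KLF13 KO (red) arrays of replicates 4 and 5. The difference between genotypes is -1.04 and -1.18 for the pair of Bnip3, and -0.71 and -0.16 for that of Higd1a.

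Vegfa and Ndrg1 showed no shared direction across the sets. Vegfa encodes the growth factor that drives vessel sprouting and is a classical target of HIF1A. It read 6.67, 7.58, 7.53, 7.67 and 7.92 in WT1 to WT5 and 6.96, 7.53, 7.83, 7.48 and 7.60 in KO1 to KO5. The difference was 0.29 in replicate 1 and -0.26 in replicates 4 and 5, and the sign over the sets turned under several settings. The difference over the sets was 0.01 ± 0.13 (SE, 95% interval -0.28 to 0.29, limma, adjusted p = 0.981). Its 14 exon-level probe sets had 0 that were lower in replicate 1 and in replicates 2 and 3 alike.

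Ndrg1 encodes a cytoplasmic protein induced by hypoxia and metal chelation. Its values were 8.67, 9.28, 9.34, 9.02 and 9.36 in WT1 to WT5 and 8.75, 9.38, 9.17, 8.93 and 8.89 in KO1 to KO5. KO1 and KO2 were above the wild-type arrays of their set, and KO3, KO4 and KO5 were below them. The difference over the sets was -0.11 ± 0.12 (SE, 95% interval -0.37 to 0.15, limma, adjusted p = 0.618), with the sign turned under quantile normalization.

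Counted together, 9 of the 10 genes had a difference under 0 over the 3 sets, with a median of -0.47 beside -0.097 for all genes tested, of which 63.5% were under 0. The median of the 10 was -0.21, -0.38 and -0.34 in replicate 1, replicates 2 and 3, and replicates 4 and 5, beside -0.018, -0.219 and -0.010 for all genes tested. With sets as block, 0 of the 10 passed lower, beside 61 of 12485 genes (0.489%), and 0 passed higher, beside 12 (0.0961%). An unadjusted p under 0.05 was reached by 7 of the 10 and by 1866 of all. In replicates 4 and 5 alone 3 of the 10 passed lower (Egln3, Bnip3 and Higd1a), beside 249 genes (1.99%), and 0 higher, beside 90 (0.721%). With the dimmer gene-level probe sets of Bnip3, Bnip3l and Higd1a, a choice made after seeing the data, 1 of the 10 passed there (Egln3). In replicates 2 and 3 alone no gene of the series passed in either direction (0% called), while 3 of the 10 and 1188 of all had an unadjusted p under 0.05. No gene passed the test of the difference between replicates 4 and 5 and replicates 2 and 3 (0% called), where 3 of the 10 and 1397 of all were under 0.05 unadjusted. Every knockout array lay under every wild-type array of its set for 6 of the 10, beside 1347 genes (10.8%), and above them for 0 of the 10, beside 203 (1.63%).

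Single arrays moved these counts. Without KO3, 5 of the 10 passed lower over the 3 sets, and 358 of 12502 genes passed in all. These 5 were Bnip3 (-0.83, adjusted p = 0.00196), Hif1a (-0.74, 0.0241), Higd1a (-0.48, 0.0288), Egln3 (-0.86, 0.0374) and Egln1 (-0.34, 0.043), each adjusted p from limma. Without KO2, Egln3 alone passed. With replicates 2 and 3 of both genotypes left out, Egln3 (-1.22, adjusted p = 0.00455) and Bnip3 (-0.97, adjusted p = 0.00431) passed.

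**Figure D4:**
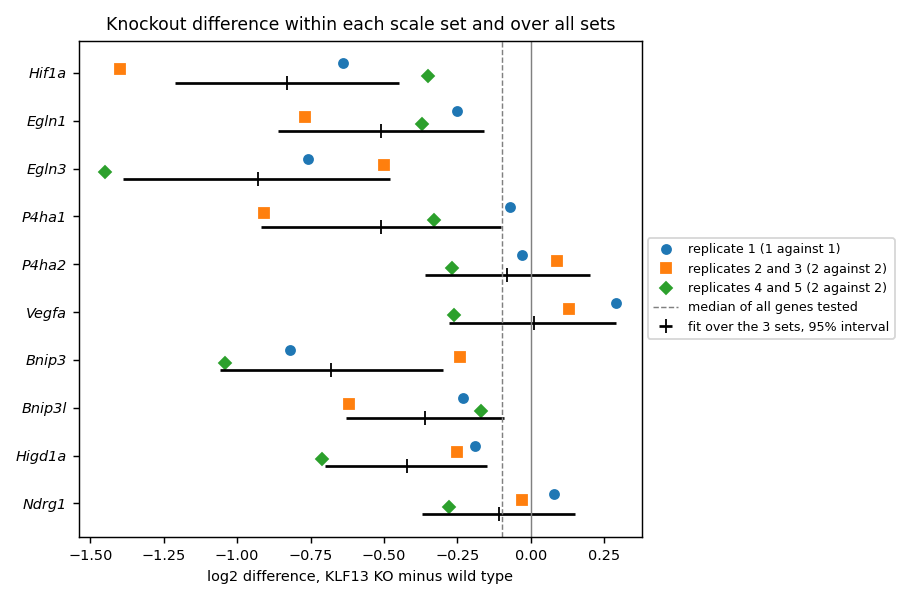
The log2 difference, KLF13 KO minus wild type (horizontal axis), of each of the 10 genes is plotted for replicate 1, replicates 2 and 3, and replicates 4 and 5 (colored points), with the fit over the 3 sets and its 95% interval as a black tick and line. The intervals of P4ha2, Vegfa and Ndrg1 include 0, and the set with the largest difference is replicates 2 and 3 for Hif1a and replicates 4 and 5 for Egln3, Bnip3 and Higd1a.

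Other genes of the oxygen response were summarised from lists, with sets as block and the same threshold. Glycolytic HIF targets showed the most negative median of these lists, -0.64, with 15 of 15 tested genes under 0 and 3 passing. The list held 18 genes, of which these 15 were present in both array tables. Of all genes tested, 63.5% were under 0 and 0.489% passed lower. Ldha, which makes lactate from pyruvate, fell by 1.30 ± 0.22 log2 units (SE, limma, adjusted p = 0.0306). Pkm, the last kinase of glycolysis, fell by 0.89 ± 0.16 (adjusted p = 0.0345), and Tpi1, triose phosphate isomerase, fell by 0.68 ± 0.10 (adjusted p = 0.0198). All 3 were at or above the 99.3 percentile of signal in both tables. In replicates 4 and 5 alone the median of the brightest probe sets did not shift. There Ldha, Pkm and Tpi1 differed by -0.67 (limma, adjusted p = 0.0279), -0.52 (adjusted p = 0.0822) and -0.60 (adjusted p = 0.0425). In these replicates 7 of the 15 passed lower, beside 1.99% of all genes tested.

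Among 24 other non-glycolytic HIF targets 16 were under 0 and 8 above it, with a median of -0.18, and medians of -0.03, -0.29 and -0.20 in replicate 1, replicates 2 and 3, and replicates 4 and 5. The 3 that passed were lower, beside 0.489% of all genes tested passing lower and 63.5% under 0. Ero1a, an oxidase of the endoplasmic reticulum, fell by 1.00 ± 0.17 (limma, adjusted p = 0.032). Rbpj, the DNA-binding partner of Notch, fell by 0.84 ± 0.15 (adjusted p = 0.032), and Fam162a, a mitochondrial protein induced by hypoxia, fell by 0.58 ± 0.11 (adjusted p = 0.047). In replicates 4 and 5 alone 4 passed lower, beside 1.99% of all genes tested. They were these 3 and Gbe1, the glycogen branching enzyme (-0.63, limma, adjusted p = 0.045).

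Regulators of the HIF pathway had 13 of 15 tested genes under 0, beside 63.5% of all genes tested, and 0 passing. Their median was -0.17. By set the median was 0 in replicate 1, -0.47 in replicates 2 and 3, where that of all genes tested was -0.219, and 0.03 in replicates 4 and 5. The smallest p was that of Epas1, which encodes the related factor HIF2A, at -1.0 ± 0.21 (limma, adjusted p = 0.064). Epas1 fell by 1.32 in replicates 4 and 5 alone (adjusted p = 0.0195). Arnt, the partner of HIF1A, differed by -0.12 ± 0.23 (adjusted p = 0.77). None of the relatives of the other genes passed over the 3 sets. Mitophagy genes had 15 of 17 under 0 (median -0.22; by set 0.07, -0.40 and -0.07), with the smallest p at the mitophagy receptor gene Fkbp8 (-0.42 ± 0.12, adjusted p = 0.176). Collagen prolyl and lysyl hydroxylases and their partners had 5 of 7 under 0 (median -0.15; by set 0.03, -0.26 and -0.12), led by P4hb, the shared partner subunit of P4HA1 and P4HA2 (-0.37 ± 0.13, adjusted p = 0.257). The NDRG and HIG1 families had 4 of 4 under 0 (median -0.22), led by Ndrg2 (-0.30 ± 0.12, adjusted p = 0.29). The VEGF family and its receptors had 5 of 5 above 0 (median 0.16; by set 0.09, 0.3 and 0.11), led by the placental growth factor gene Pgf (0.21 ± 0.14, adjusted p = 0.456). Pgf was dim, at the 36.9 and 34.7 percentiles of signal in the exon-level and gene-level tables. Over all exon-level probe sets with a mean under 6, the median difference in replicates 2 and 3 was 0.1.

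**Figure D5:**
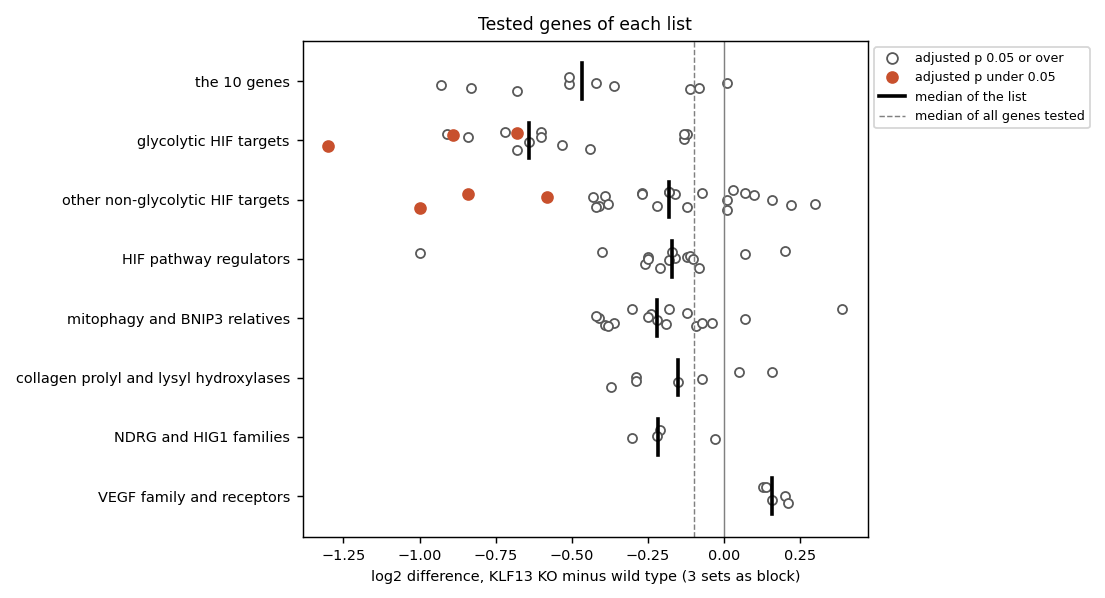
Each point is the log2 difference, KLF13 KO minus wild type over the 3 sets (horizontal axis), of 1 tested gene of a list (rows); filled points have an adjusted p under 0.05, bars mark list medians and the dashed line the median of all genes tested. Glycolytic targets lie farthest to the left, with a median of -0.64, and the VEGF family lies to the right of 0, with a median of 0.16.

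The genes whose signal followed that of Hif1a most closely were Ndfip1, Ddb1 and Paics. Likeness was measured as the root mean square difference of log2 values over the 10 arrays, after the mean of each set was removed. It was 0.069 for Ndfip1, an adaptor of ubiquitin ligases, and 0.086 for both Ddb1, an adaptor of another ligase family, and Paics, an enzyme of purine synthesis, beside a median of 0.451 over all genes tested. Their differences were -1.29, -1.50 and -1.43 in replicates 2 and 3 and -0.36, -0.49 and -0.28 in replicates 4 and 5. The choice by likeness fixes this pattern. Over all probe sets with means of 10 to 12 and of at least 12, median differences were -0.8 and -1.79 in replicates 2 and 3. In replicates 4 and 5 they were 0.04 and 0. The part of this shift in the likeness was not tested.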

How the data were processed

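RNA of 5 wild-type and 5 KLF13 KO samples was measured on Affymetrix arrays. Deposited signals are on a log2 scale and were made with RMA, as the submitters' processing notes say. The sources used here do not give its version. The exon-level table held 241576 probe sets, of which 212097 name 1 gene, and the gene-level one held 35556, of which 21789 do. Other probe sets were left out. Symbols were updated through RefSeq (2742 and 19). An exon-level gene value is the mean of its probe sets and a gene-level value its brightest probe set. Tests covered genes whose mean log2 reached the 30th percentile of each table. Fits used limma 3.58.1 in R 4.3.3 (lmFit, eBayes, 2-sided, Benjamini-Hochberg over all genes tested, adjusted p under 0.05), with the 3 sets as a fixed block. They were checked on simulated data with independent normal noise, which does not cover the shift of bright probe sets. The tables lie on scales of their own, so the gene-level set and replicates 2 and 3 were also fitted alone; replicate 1, with 1 array per genotype, has no test of its own. Precision is limited by how few arrays each set holds.

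The 10 genes, the lists and the tests were chosen with earlier results of these data known. Named were the 10 genes, Klf13, up to 3 passing genes per list and direction (or the gene of smallest p) and the 3 genes most like Hif1a. Arnt, Egln2, Hif1an, Gbe1, Nkg7, Tyrobp and single probe sets were named after their values were seen. Alternatives were other blocks, normalizations, summaries and filters, moderation with trend, and each array left out.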

Additional observations from a re-analysis of the deposited data

Results flagged for a closer look

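Among the 5 knockout arrays, each taken against the wild-type mean of its set, KO3 stood apart for Egln1, at -1.17 log2 units beside -0.25, -0.38, -0.41 and -0.34 in KO1, KO2, KO4 and KO5. The gap to the nearest other array was 0.82 of the whole range. KO3 was also lower over the whole exon-level table. From WT3 to KO3 the median difference was -0.39 for probe sets with a mean of 6 to 8 and -0.78 at 8 to 10. From WT2 to KO2 it was -0.11 and -0.23. The part of this shift in the Egln1 gap was not tested. The same check was made for each of the 10 genes, and chance sets off about 1 in 20 groups of independent values. Here arrays of a set share a wild-type mean and the sets lie on separate scales, so that rate need not hold. KO3 was also the lowest for P4ha1, at -1.36, where the gap did not reach the critical value. Without KO3 the Egln1 difference over the sets was -0.34 (limma, adjusted p = 0.043), smaller than with it and past the threshold.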

How the results depend on the processing

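Over 24 or 25 alternatives per gene, Hif1a, Egln1, Egln3, P4ha1, Bnip3, Bnip3l and Higd1a kept a difference under 0. P4ha2 turned to 0.005 without WT5 and ranged from -0.151 to 0.005 with single arrays left out. Ndrg1 turned to 0.034 under both quantile normalizations. Vegfa turned to -0.033 with the median of exon-level probe sets and -0.074 without replicates 2 and 3, and ranged from -0.065 to 0.085 with single arrays left out. Of the 10 genes, 0 passed lower over the sets, but 1 did with array medians subtracted (Hif1a, adjusted p = 0.0475), 1 with the odd probe sets of Bnip3 and P4ha2 left out, 2 without replicates 2 and 3, and 0 to 5 with an array left out. Leaving out these probe sets or replicates 2 and 3, the dimmer probe sets and the limit of 10 were chosen after seeing the data. In all, 73 genes passed, against 4 with the table as block, 23 with the replicate block, 31 with the median of exon-level probe sets, 39 with that median and quantile normalization, 48 with exon-level probe sets under 10, 254 without replicates 2 and 3, and 11 to 358 with an array left out. Of the 10, 3 passed in the gene-level table, against 1 under a 50th percentile filter (Egln3 and Higd1a were not tested there), 1 with the dimmer probe sets, 2 with the mean of probe sets (Higd1a at -0.436, adjusted p = 0.102) and 2 to 3 with an array left out. In replicates 2 and 3 alone 0 of the 10 passed, and 0 to 5 with an array left out; for the test between sets these were 0 and 0 to 7. There the lone array left in a genotype is assumed to vary like the others. The cause of these changes was not tested.

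With the replicate block 0 of the 10 genes passed (Hif1a adjusted p = 0.158). Deviations of same-numbered arrays correlated at -0.42 in replicates 2 and 3 and -0.24 in replicates 4 and 5, so the numbers were not taken to pair the samples.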
